A study of Mus musculus with 4 samples.

Results

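Imprinted genes that regulate growth were followed across 4 mouse embryonic fibroblast (MEF) lines, 2 Ip6k1+/+ and 2 Ip6k1-/-. Ip6k1 encodes inositol hexakisphosphate kinase 1, which makes the inositol pyrophosphate 5-IP7. The 10 genes were Dlk1, Mest, Cdkn1c, Grb10, Plagl1, Peg3, Zim1, Ndn, Sgce and Peg10, and every array probe that carried one of these names was taken, which gave 17 probes of the 41174 on the array. The lines came from E14 littermates of 1 heterozygous pair, and each was derived from a single embryo. All 4 carry SV40 large T antigen, which immortalises fibroblasts by binding p53 and the retinoblastoma protein, and all were harvested while growing exponentially after thawing. A line is named below by its genotype and replicate number, and 1 array of Cy3-labelled RNA was hybridised per line. With 2 lines per genotype, a genotype difference rests on 4 embryos, and a difference between lines of a genotype rests on 1 line each.

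Imprinted genes are expressed mainly from either the maternal or the paternal copy. The choice is set by DNA methylation laid down in the germ line at control regions, and 1 such region can govern several neighbouring genes, so the genes lie in domains. Many of them act on fetal growth. Paternally expressed Dlk1, Mest, Peg3 and Plagl1 are known from mouse studies of growth and of mesenchymal or placental development, while maternally expressed Cdkn1c and Grb10 restrain growth. Imprinted expression is also known to drift in cultured cells. The arrays measure the sum of RNA from both copies, and methylation was not measured.

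The probe sequences below are shown because several of the largest differences between lines were read by them. They are written 5′ to 3′ as deposited, in lower case, and each has at least 1 reading frame without a stop codon. The Sgce probe is shown as a contrast, since it read nearly the same level in every line. Its 60 bases are placed over a span of 2441 bases, so it crosses at least 1 intron.
Dlk1, chr12:110698428-110698487 (mm9, plus strand): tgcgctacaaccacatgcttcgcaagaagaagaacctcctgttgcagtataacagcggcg
Ndn, chr7:69493847-69493906 (mm9, plus strand): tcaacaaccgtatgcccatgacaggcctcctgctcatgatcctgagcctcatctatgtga
Peg3, chr7:6660440-6660499 (mm9, minus strand): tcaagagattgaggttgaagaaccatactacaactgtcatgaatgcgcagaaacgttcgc
Sgce, chr6:4641640-4644080 (mm9, minus strand): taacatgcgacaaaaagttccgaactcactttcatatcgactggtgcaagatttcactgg

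RefSeq promoters, from 250 bases before to 50 after a start site in GRCm38.p6, were found for 7 of the 10 genes in 10 entries. CG dinucleotides, the sites at which imprinting methylation is placed, are in capitals, and 3 genes whose lines differed are set beside Grb10, whose lines did not.
Dlk1, chr12:109452573-109452872 (plus strand): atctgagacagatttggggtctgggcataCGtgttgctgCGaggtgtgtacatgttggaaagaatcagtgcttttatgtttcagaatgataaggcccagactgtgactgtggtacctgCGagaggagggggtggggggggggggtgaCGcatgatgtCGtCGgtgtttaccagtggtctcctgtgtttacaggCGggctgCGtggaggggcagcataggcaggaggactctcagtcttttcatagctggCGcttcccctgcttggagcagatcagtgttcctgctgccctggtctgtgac
Ndn, chr7:62348027-62348326 (plus strand): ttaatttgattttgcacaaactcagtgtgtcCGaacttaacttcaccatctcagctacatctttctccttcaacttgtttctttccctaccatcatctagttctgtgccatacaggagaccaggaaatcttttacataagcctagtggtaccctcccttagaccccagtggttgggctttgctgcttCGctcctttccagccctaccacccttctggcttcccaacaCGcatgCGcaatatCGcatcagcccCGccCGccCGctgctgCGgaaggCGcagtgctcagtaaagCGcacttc
Peg3, chr7:6730370-6730669 (minus strand): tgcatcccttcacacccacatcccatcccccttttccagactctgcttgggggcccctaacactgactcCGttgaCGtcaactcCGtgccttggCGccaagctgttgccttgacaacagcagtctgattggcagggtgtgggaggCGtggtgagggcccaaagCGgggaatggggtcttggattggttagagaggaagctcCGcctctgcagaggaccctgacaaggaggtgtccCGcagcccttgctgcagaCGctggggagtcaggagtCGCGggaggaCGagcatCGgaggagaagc
Grb10, chr11:12037371-12037670 (minus strand): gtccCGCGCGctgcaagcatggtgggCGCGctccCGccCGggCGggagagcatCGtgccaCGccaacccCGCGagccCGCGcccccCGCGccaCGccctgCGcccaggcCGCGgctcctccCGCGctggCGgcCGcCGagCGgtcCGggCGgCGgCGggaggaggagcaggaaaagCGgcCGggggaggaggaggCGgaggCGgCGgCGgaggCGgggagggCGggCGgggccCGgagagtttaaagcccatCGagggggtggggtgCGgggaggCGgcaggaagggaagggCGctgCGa
The Dlk1, Ndn and Peg3 windows held 9, 11 and 13 CG dinucleotides, and 45.8%, 41.4% and 37.9% of the 32851 promoters in the table held at least as many. This Grb10 window held 45, a count reached by 1.93% of promoters, while the other Grb10 entry, at another start site, held 9 as Dlk1 did. The count of CG dinucleotides thus did not separate Grb10 from the other 3 genes. The entries of the 7 genes ranged from 8 to 45, all above the median of 7 over all promoters. These counts describe the windows and say nothing of methylation in these lines.

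Levels are given as log2 of the background-corrected signal minus the 75th percentile of the array, so that 0 is the signal of a probe at that percentile. A probe was tested when it cleared background on both arrays of 1 or both genotypes. Levels of different probes cannot be set against each other. On each array 52.0% to 55.5% of probes exceeded background clearly (the extraction software's well-above-background flag), and the 75th percentile signal lay between 610 and 747. A probe with 10 spots varied over them by a median SD of 0.040 (log2, 129 probes), which is the measurement spread within an array. All 11 fibroblast markers were well above background on every array. Cdh1 of epithelium, Ptprc of blood, Pecam1 of endothelium and Myod1 of muscle were not well above background on any. Krt18 of epithelium, Cd68 of blood, Kdr of endothelium and Acta1 of muscle, however, were well above background on every array. Acta1 read between 1.65 and 3.27. Ip6k1 followed the labels: probe A_51_P103718 read 2.46 and 2.61 in the Ip6k1+/+ lines against -1.98 and -1.23 in the Ip6k1-/- lines (limma adjusted p = 0.368). Probe A_51_P213766 read 0.35 and 0.39 and did not clear background in the Ip6k1-/- lines, a level at least 34.0-fold lower (limma adjusted p = 0.0356). The lines of a genotype also differed in sex-linked transcripts. Xist, made from the inactive X chromosome, read 3.55 in replicate 1 of the Ip6k1+/+ lines, 3.65 in replicate 2 of the Ip6k1-/- lines, and the others gave no signal well above background. Y-linked Eif2s3y had the opposite pattern, at 0.89 in Ip6k1+/+ replicate 2 and 1.16 in Ip6k1-/- replicate 1. Both patterns therefore occurred in each genotype.

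Of the 10 genes, 7 were well above background on all 4 arrays with at least 1 probe, Peg3 was above it in 2 lines, and Zim1 and Peg10 in none. Dlk1, Mest, Cdkn1c, Ndn and Plagl1 differed more between the lines of at least 1 genotype than between the genotype means. So did Sgce, but its levels, like those of Grb10, were nearly constant. No gene differed between genotypes by the test. The low or high line was not the same for every gene. Dlk1 and Mest were lowest in Ip6k1-/- replicate 1, and Plagl1 was lowest in Ip6k1-/- replicate 2. Cdkn1c, Ndn and Peg3 were high in the line numbered 2 of each genotype. Over probes of all genes, too, the difference between the lines numbered 1 and 2 correlated at 0.48 between genotypes, with 2 pairs only.

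**Figure D1:**
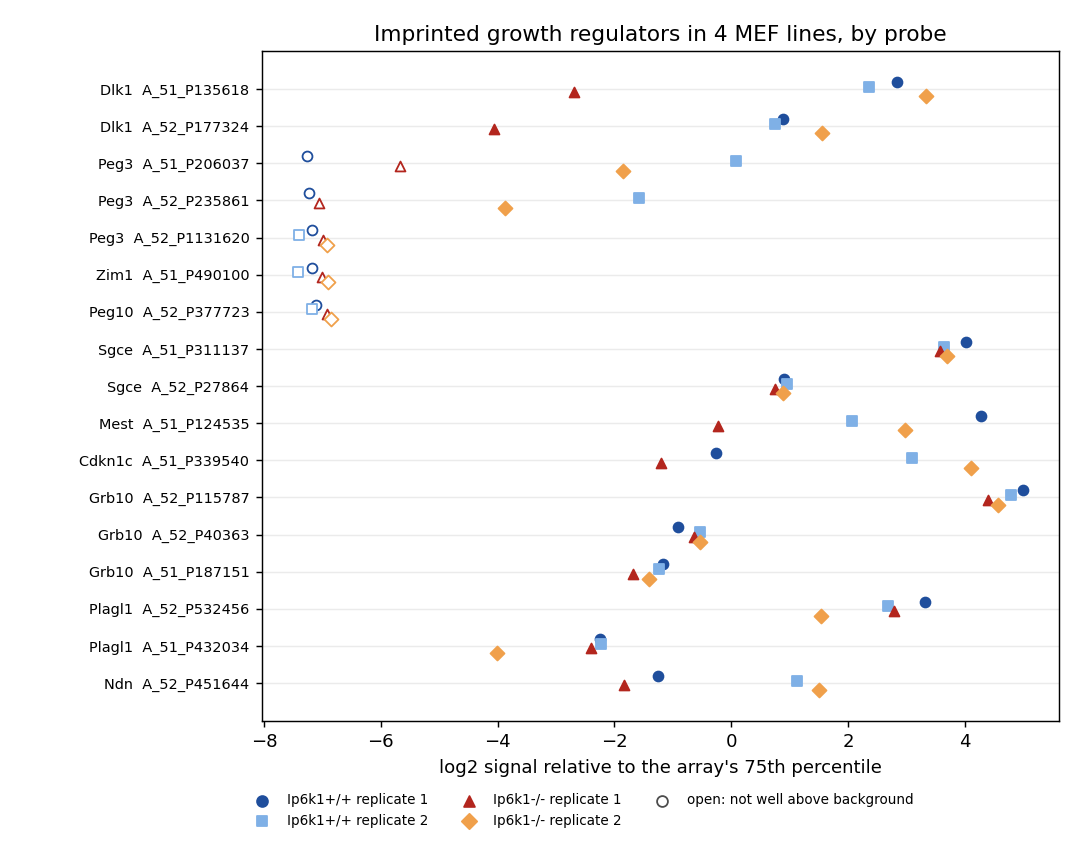
Level of each probe of the 10 imprinted genes in each of the 4 MEF lines, as log2 signal relative to the array's 75th percentile, with 1 symbol per line and open symbols where the probe was not well above background. The Ip6k1-/- replicate 1 symbol of Dlk1 lies at -2.68 and -4.06, far under the other 3 lines, and the Grb10 and Sgce symbols nearly coincide.

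Dlk1 encodes a transmembrane protein of the Notch ligand family that holds back the differentiation of preadipocytes and is abundant in fetal mesenchyme. Its probe A_51_P135618, at chr12:110698667-110698726 (mm9), read 2.84 and 2.37 in the Ip6k1+/+ lines, with -2.68 and 3.34 in the Ip6k1-/- lines. Probe A_52_P177324, printed above, read 0.89 and 0.74 against -4.06 and 1.55. Both probes thus placed Ip6k1-/- replicate 1 far below the other 3 lines, by 5.05 and 4.80 under the next lowest, while Ip6k1-/- replicate 2 was the highest of all. The Ip6k1-/- lines differed by 65.0-fold and 48.7-fold on these probes and the Ip6k1+/+ lines by 0.47 and 0.14 on the log2 scale. The signal in Ip6k1-/- replicate 1 was still well above background. The genotype difference of the means was -2.28 (SE 1.97, n = 2 lines each, 95% interval -7.43 to 2.88, limma adjusted p = 0.993) and -2.07 (95% interval -6.87 to 2.74). Without Ip6k1-/- replicate 1 it was 0.74 on both, so its direction rested on that line. Within each genotype the line with Xist had the higher Dlk1 signal on both probes, though by only 0.47 and 0.14 in the Ip6k1+/+ lines. The part of this in the result was not tested. In RNA from whole cultures, fewer cells with a transcript and less of it per cell cannot be told apart.

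The genes that share the Dlk1 domain were read next, all as log2 signals. Meg3, a maternally expressed noncoding RNA transcribed from the same domain, read 1.37 and 2.62 in the Ip6k1+/+ lines against -4.43 and 1.55 (genotype difference -3.44, SE 2.00, limma adjusted p = 0.993). Rian, which hosts small nucleolar RNAs, read -0.99, 0.20 and -0.23 in the other 3 lines. In Ip6k1-/- replicate 1 it did not clear background, at least 23.0-fold under its sister line. Mirg, which hosts microRNAs, read -2.24, -1.09 and -1.67 and likewise did not clear background there, at least 8.50-fold under. These maternally expressed RNAs were therefore low in the same line as paternally expressed Dlk1. Dio3, the deiodinase that inactivates thyroid hormone, had another pattern. It read 3.61 and -3.15 in the Ip6k1+/+ lines against -4.40 in Ip6k1-/- replicate 2. In Ip6k1-/- replicate 1 it was not well above background. Its Ip6k1+/+ lines thus differed by 108-fold.

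Within 1 Mb of Dlk1, a window chosen after its values were seen, 15 other gene names had a tested probe. The 8 on the side of Yy1 and Wars, between 921 and 432 kb away, had no line standing 2-fold or more below the others. On the other side, the 5 names between 89 and 281 kb away were all at least 2-fold lower in Ip6k1-/- replicate 1 than in any other line. They were Meg3, AI850416, ENSMUST00000021696, Rian and Mirg. AI850416 and ENSMUST00000021696, at 102 and 111 kb, lie close to Meg3 at 89 kb and may belong to Meg3 transcripts. The 5 names need not be 5 genes. The transcript ENSMUST00000021696 read 2.76, 3.85 and 2.89 in the other lines and -3.83 in this one. NAP070880-1, at 368 kb, read between 0.86 and 1.26 in all 4 lines, and Dio3, at 820 kb, was again lowest in this line, though without clearing background. AI850416, Rian, Mirg and Dio3 did not clear background in this line and were tested through the Ip6k1+/+ arrays. Over all gene names, 2.03% were at least 2-fold lower in Ip6k1-/- replicate 1 than in each other line.

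**Figure D2:**
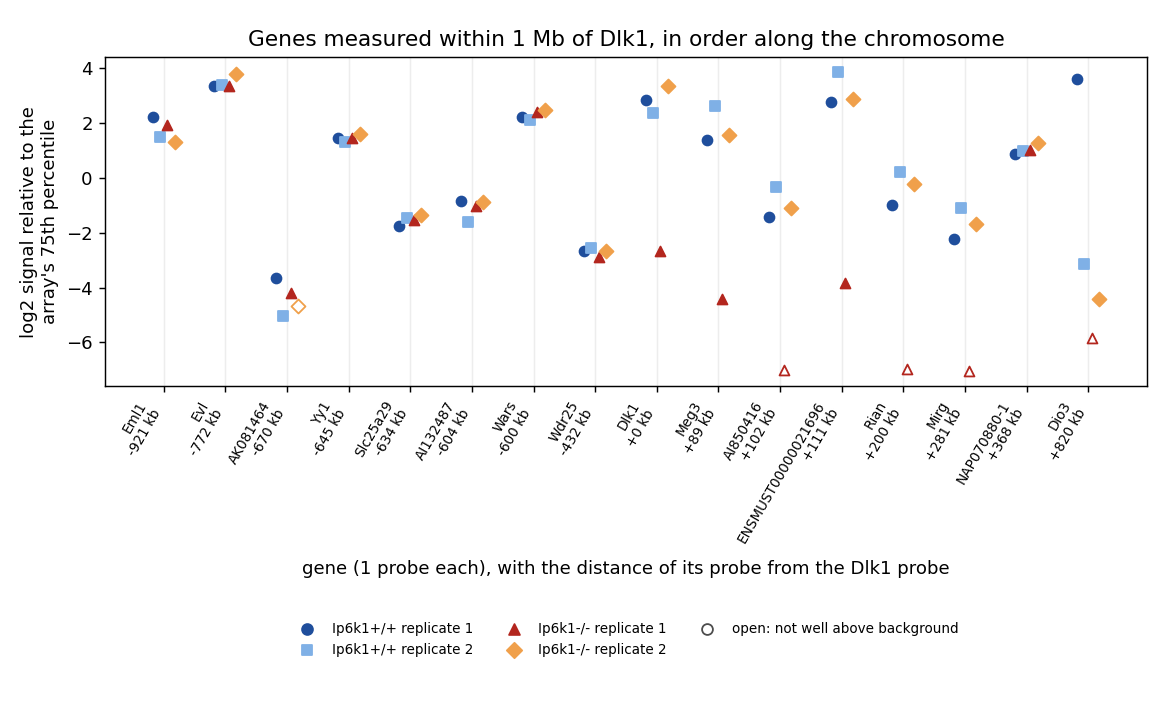
Log2 signal relative to the array's 75th percentile in the 4 lines for Dlk1 and each gene name with a tested probe within 1 Mb, in order along the chromosome. The distance of its probe from the Dlk1 probe is given. Ip6k1-/- replicate 1 falls far below the other lines from Dlk1 to Mirg (+281 kb) and lies close to them for the 8 genes on the other side.

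Mest encodes a hydrolase-like protein that is expressed from the paternal copy in embryonic mesoderm. Its probe A_51_P124535, at chr6:30698279-30698338 (mm9), read 4.27 and 2.07 in the Ip6k1+/+ lines against -0.23 and 2.98 in the Ip6k1-/- lines. The lines were spread widely, with gaps of 4.59-fold between the Ip6k1+/+ lines and 9.24-fold between the Ip6k1-/- lines, and Ip6k1-/- replicate 1 was again the lowest, 2.31 under the next. The genotype difference was -1.80 (SE 1.28, n = 2 lines each, 95% interval -5.14 to 1.54, limma adjusted p = 0.993). Within each genotype the line with Xist had the higher Mest signal, as it had for Dlk1, and the part of this in the result was not tested. Copg2, which overlaps the end of Mest on the opposite strand, read 1.35, 1.32, 0.86 and 1.15. Ip6k1-/- replicate 1 was its lowest line too, but only 0.29 under the next. On Copg2 probes A_52_P48777 and A_52_P362015 this line was also lowest, by 0.35 and 0.19.

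Cdkn1c encodes p57Kip2, a maternally expressed inhibitor of cyclin-dependent kinases. Its probe A_51_P339540, at chr7:150644753-150644812 (mm9), read -0.27 and 3.09 in the Ip6k1+/+ lines against -1.21 and 4.10 in the Ip6k1-/- lines. The level was low in the lines numbered 1 and high in the lines numbered 2, with gaps of 10.3-fold and 39.8-fold within the genotypes. The genotype means, 1.41 and 1.45, lay close together but with so wide a spread that the 95% interval of their difference ran from -5.33 to 5.40 (difference 0.04, SE 2.05, n = 2 lines each, limma adjusted p = 1.00). Of its domain, Kcnq1ot1, the paternally expressed noncoding RNA that silences neighbouring genes, was also higher in the line numbered 2 of each genotype, with -2.51 and -1.55 against -2.98 and -1.31 on probe A_52_P619388. Nap1l4, a histone chaperone gene, read between 5.04 and 5.34, and Osbpl5 between 3.72 and 4.16, without this pattern. Cd81 (6.36 and 5.91 against 6.22 and 5.45) and Tssc4 (4.12 and 3.42 against 3.95 and 3.57) were lower in the lines numbered 2 of both genotypes. Slc22a18 probe A_51_P165882 read -3.94 and -3.07 in the Ip6k1+/+ lines and -3.94 in Ip6k1-/- replicate 1. It did not clear background in Ip6k1-/- replicate 2. Phlda2, which restrains placental growth, read -3.50 and -2.22 against -2.30 and -1.12, with the lines numbered 2 higher in both genotypes.

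Ndn encodes necdin, a growth suppressor of the MAGE family that lies in the Prader-Willi domain and is expressed from the paternal copy. Its probe, printed above, read -1.26 and 1.12 in the Ip6k1+/+ lines against -1.84 and 1.51 in the Ip6k1-/- lines. The lines numbered 2 were again the higher ones, by 5.21-fold and 10.2-fold, and the genotype difference was -0.10 (SE 1.36, n = 2 lines each, 95% interval -3.64 to 3.45, limma adjusted p = 0.997). Snrpn, a spliceosome gene of the same domain that is also paternally expressed, read -3.43 and -1.24 against -3.44 and -1.67. Peg12, a close neighbour of Ndn, read -0.91 and 0.97 in the Ip6k1+/+ lines against 1.61 in Ip6k1-/- replicate 2. In Ip6k1-/- replicate 1 it did not clear background, a signal at least 82.5-fold lower than in the sister line. Ube3a, which encodes a ubiquitin ligase and is imprinted in neurons, read between 2.51 and 2.95 and did not share the pattern. Magel2 and Mkrn3 were not well above background in any line.

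Peg3 encodes a paternally expressed zinc finger protein. Probe A_51_P206037, printed above, read 0.08 (Ip6k1+/+) and -1.86 (Ip6k1-/-) in the lines numbered 2, and neither line numbered 1 cleared background. The lines numbered 2 were thus at least 38.7-fold and at least 7.44-fold higher than their sister lines. Probe A_52_P235861 showed this pattern too, with -1.58 and -3.88 in the lines numbered 2 and bounds of 12.3-fold and 1.83-fold. The remaining probe, A_52_P1131620, did not clear background on any array. No Peg3 probe was above background in both lines of a genotype, so none entered the genotype test, and no genotype difference is given. Usp29, transcribed from the same promoter region in the opposite direction, was weak, at -4.42, -3.49, -3.60 and -4.10. Zim1, the zinc finger gene next to Peg3, had a single probe, and on no array did it clear background.

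Some markers of other cell types and of fibroblasts followed the split of Cdkn1c, Ndn and Peg3 by line number, and others did not. The linear signals of 6 epithelial markers, in units of the 75th percentile, summed to 0.754 and 0.513 in the lines numbered 1 and 3.15 and 1.59 in the lines numbered 2, with 1 of the 6, Krt18, above background on every array and making up most of the sum. Krt5 was near background, at -4.41 and -4.93 in the Ip6k1+/+ lines, and did not follow the split. The 4 neural markers on the array summed to 1.25 and 1.06 against 2.71 and 3.24, with Tubb3 above background in every line and Gfap in none. Tubb3 made up most of this sum, and Sox2 went the other way in the Ip6k1+/+ lines, at -2.06 and -4.69, without clearing background in the Ip6k1-/- lines. The sum of the 3 adipocyte markers went the other way. It was 4.94 and 3.28 in the lines numbered 1 and 0.367 and 0.556 in the lines numbered 2. Fabp4, the fatty acid carrier of adipocytes, read 1.56, -3.91, 1.54 and -4.10, and Adipoq did not clear background in any line. Pparg was lower in the line numbered 2 in the Ip6k1+/+ lines only. In the Ip6k1-/- lines it was higher in replicate 2, so Fabp4 alone set the direction of the sum there. The 5 muscle markers, with Acta1 alone above background, summed to 9.67 and 4.82 in the lines numbered 1 and 3.82 and 3.18 in the lines numbered 2. Endothelial sums were 0.132 and 0.0984 in the Ip6k1+/+ lines against 0.172 and 0.385 in the Ip6k1-/- lines. Blood sums were 0.185 and 0.196 against 0.327 and 0.208. Neither split by number in the same direction in both genotypes. The 11 fibroblast markers summed to between 478 and 551, with 3 of them saturated on every array and Vim on 3, so that the sum is insensitive. Of those not saturated, Thy1 was higher in the lines numbered 2, with 1.41 and 6.02 against 3.98 and 5.52. Pdgfra (0.20, -2.19, -1.08 and -2.33) and Prrx1 (3.68, 2.67, 4.09 and 2.67) were lower in them. So were Col3a1 (6.24, 5.90, 5.46 and 4.17) and Twist1 (1.21, 0.055, 1.17 and 0.67). Twist2 (3.23, 2.96, 1.52 and 3.63) moved in opposite directions in the genotypes. Pdgfrb (4.67, 4.45, 3.34 and 3.39) was lower in both Ip6k1-/- lines and did not split by number. The part of these marker differences in the Cdkn1c, Ndn and Peg3 values was not tested. The labels do not say that equal replicate numbers mark a shared culture or day.

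Plagl1 encodes a zinc finger transcription factor that is expressed from the paternal copy and acts on other imprinted genes. Probe A_52_P532456 read 3.31 and 2.68 in the Ip6k1+/+ lines against 2.79 and 1.53 in the Ip6k1-/- lines. Probe A_51_P432034 read -2.25 and -2.23 against -2.41 and -4.01. Ip6k1-/- replicate 2 was the lowest line on both, by 2.40-fold against its sister line on the first probe, and the other 3 lines lay close together on the second. The genotype differences were -0.83 (SE 0.49, n = 2 lines each, 95% interval -2.13 to 0.46) and -0.96 (SE 0.60, 95% interval -2.53 to 0.61), both with a limma adjusted p of 0.993. Without Ip6k1-/- replicate 2 they were -0.20 and -0.16.

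Grb10 encodes an adaptor that binds the insulin and IGF1 receptors and limits their signalling. Its brightest probe, A_52_P115787, read 5.00 and 4.79 in the Ip6k1+/+ lines against 4.39 and 4.57 in the Ip6k1-/- lines. The Ip6k1-/- lines were both below the Ip6k1+/+ lines, and the difference of -0.41 (SE 0.19, n = 2 lines each, 95% interval -0.90 to 0.07) was larger than the gaps of 0.20 and 0.17 within the genotypes. Its unadjusted p of 0.0805 was the lowest of the 10 genes' probes by limma, and the adjusted p was 0.993. Probe A_51_P187151 read -1.17 and -1.24 against -1.67 and -1.41 (difference -0.33), while A_52_P40363, which lies nearer the start of the gene, read -0.91 and -0.53 against -0.63 and -0.53 (difference 0.14). The probes thus gave no common direction.

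Sgce encodes epsilon-sarcoglycan, a membrane glycoprotein, and shares a promoter region with the retrotransposon-derived placental gene Peg10. Probe A_51_P311137 read 4.02 and 3.64 in the Ip6k1+/+ lines against 3.57 and 3.69 in the Ip6k1-/- lines (difference -0.20, SE 0.21, 95% interval -0.76 to 0.36, limma adjusted p = 0.993, n = 2 lines each). The intron-crossing probe read 0.91 and 0.96 against 0.75 and 0.89 (difference -0.12, 95% interval -0.68 to 0.45). The intervals reach from -0.76 to 0.45, so equal levels were not shown. The single Peg10 probe did not clear background on any array, and this bound is for 1 probe of the transcript. Asb4 of the same domain was seen with probe A_52_P594756 in the lines numbered 2 alone, at -1.77 and -3.89, as Peg3 was.

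The question of the study was what changes when Ip6k1 is lost, and over the 10 genes the genotype comparison gave no call. Of the 17 probes, 12 were tested, each of them well above background on all 4 arrays, covering 7 genes. None of the 12 passed limma at an adjusted p of 0.05, against 0.0139% of all 21573 probes tested. That share includes Ip6k1 probes A_51_P213766 and A_52_P413035 (limma adjusted p = 0.0356 for each). None of the 12 had an unadjusted p below 0.05, against 3.34%. The adjusted p-values lay between 0.993 and 1.00. An exact permutation test of 2 lines against 2 could not go below p = 0.333. Under the 2-fold rule, which asks for a difference of the means of at least 1 on the log2 scale and a distance of each Ip6k1-/- line from the Ip6k1+/+ mean of at least 0.9 in the same direction, no probe was lower and none was higher, against 1.87% and 1.06% of all probes. With the difference of the means alone, 3 probes were lower, both Dlk1 probes and Mest, and none was higher. The background for this was 4.11% lower and 1.84% higher. The genotypes did not overlap for 4 probes, all lower in Ip6k1-/-, against 12.6% of all probes lower and 18.8% higher. These were the intron-crossing Sgce probe, 2 of Grb10 and A_51_P432034 of Plagl1. The median difference over the 12 probes was -0.37, beside 0.05 over all probes tested.

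**Figure D3:**
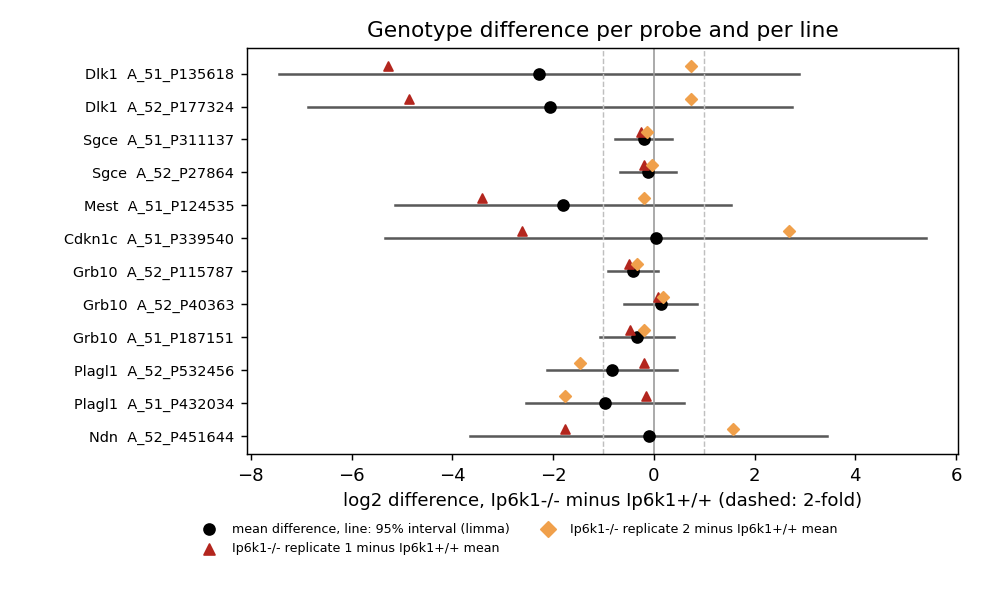
Difference between genotypes (Ip6k1-/- minus Ip6k1+/+, log2) for each of the 12 tested probes, with its 95% interval from limma and a symbol for each Ip6k1-/- line minus the Ip6k1+/+ mean. Every interval includes 0, the Grb10 and Sgce intervals are narrow, and the 2 Ip6k1-/- lines lie on opposite sides of 0 for Dlk1, Cdkn1c and Ndn.

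The spread between lines was then compared with that of all genes, with the brightest probe of each gene. The Ip6k1-/- lines were at least 2-fold apart for 5 of the 7 tested genes (71.4%), Dlk1, Mest, Cdkn1c, Ndn and Plagl1, against 12.4% of 14335 gene names. The Ip6k1+/+ lines were as far apart for 3 (42.9%), Mest, Cdkn1c and Ndn, against 14% of gene names. The median gap over the 7 genes was 3.21 between the Ip6k1-/- lines and 0.64 between the Ip6k1+/+ lines, beside 0.31 and 0.36 over all gene names. All 7 genes were well above background on every array, and among the 13324 gene names of that kind 10% of Ip6k1-/- and 12.2% of Ip6k1+/+ pairs were 2-fold apart. The wider list of imprinted genes described below had 15 of 38 (39.5%) apart in the Ip6k1-/- lines and 12 (31.6%) in the Ip6k1+/+ lines, with median gaps of 0.62 and 0.76. Over its 30 genes above background on every array these were 8 (26.7%) and 6 (20%), so wide gaps also occurred among other imprinted genes. Since 1 line stands for 1 embryo on each side of a gap, these counts describe the 4 lines and carry no test.

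**Figure D4:**
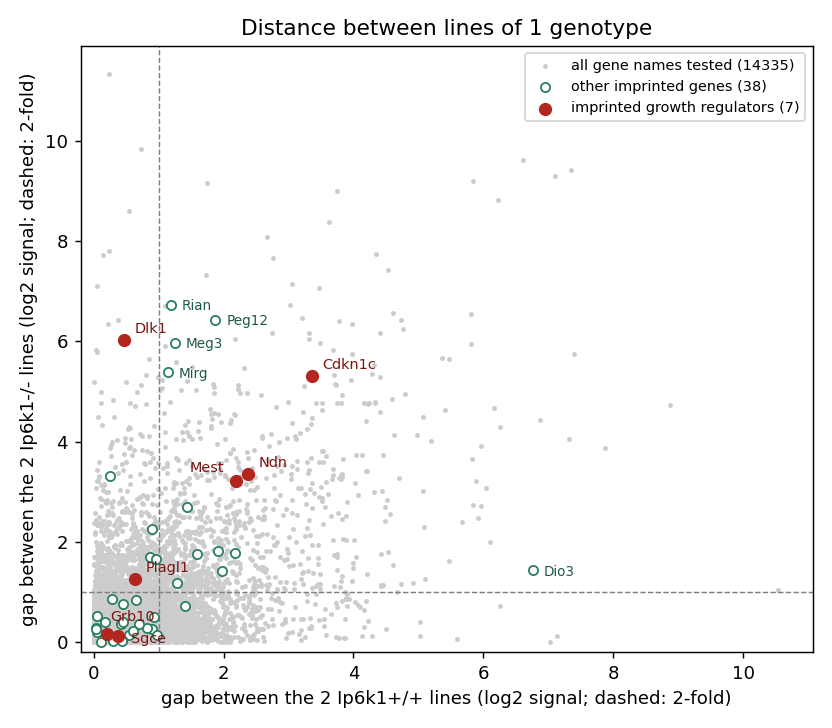
Gap between the 2 Ip6k1-/- lines against the gap between the 2 Ip6k1+/+ lines (log2 signal) for all 14335 tested gene names, the 38 other imprinted genes and the 7 imprinted growth regulators, with dashed lines at 2-fold. Dlk1 lies high at the left with a gap in the Ip6k1-/- lines alone, Mest, Cdkn1c and Ndn are apart in both genotypes, and Grb10 and Sgce lie near the origin.

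A wider list of 67 other imprinted genes was read in the same way. Whether each of them is expressed from 1 copy in these fibroblasts was not measured. On the array 61 were found by name, 38 had a tested probe and 14 were not well above background anywhere. By limma none of the 38 was called, against 0.00698% of gene names, and 1, Dcn, had an unadjusted p below 0.05, against 3.68%. Under the 2-fold rule 3 were lower in Ip6k1-/- and none was higher, against 2.09% and 1.07% of all gene names. Dcn, the matrix proteoglycan decorin, read 0.99 and 1.89 in the Ip6k1+/+ lines against -2.09 and 0.18, or -2.40 between the means (SE 0.82, n = 2 lines each, limma adjusted p = 0.993). H19, a maternally expressed noncoding RNA that restrains growth, read 3.52 and 1.54 against 1.14 and -0.28. Dio3 was the other, and its low value was shared by Ip6k1+/+ replicate 2. Of the 38 genes, 8 passed the filter through the Ip6k1+/+ arrays alone, Dio3 among them, and all 8 were lower in Ip6k1-/-, so that the filter helped to set their direction. Over the other 30, which were above background on every array, 22 had a difference below 0, as 6 of the 7 growth regulators did, against 43.3% of the gene names measured on every array. The median difference over the 30 was -0.16, beside 0.05 over those gene names.

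Ip6k1-/- replicate 1 stood at least 2-fold below the other 3 lines for Dlk1 and Mest of the 7 growth regulators and, of the 30 other imprinted genes above background on every array, for 3, Meg3, Dcn and Igf2. The background was 1.13% of the gene names measured on every array. A further 5 genes, Dio3, Rian, Mirg, Peg12 and Cobl, were lowest there without clearing background, and they had been tested through the Ip6k1+/+ arrays alone. For Dio3 the bound under Ip6k1-/- replicate 2 is 1.28-fold. Igf2, the paternally expressed fetal growth factor, read 1.89, 1.64 and 1.92 in the other lines and -1.40 in this one. Ip6k1-/- replicate 2 was at least 2-fold below the others for H19 and Plagl1, and by its raw reading for Slc22a18, against 2.41% of gene names. Slc22a18 was not well above background in that line, and its bound under Ip6k1-/- replicate 1 is 1.67-fold. The other tested Slc22a18 probe, A_52_P640221, read -4.53 and -4.53 in the Ip6k1+/+ lines against -4.23 and -4.61. Ip6k1+/+ replicate 1 was so for Phlda2 (background 1.74%) and Ip6k1+/+ replicate 2 for none (background 0.774%). In the other direction, Ip6k1+/+ replicate 1 stood at least 2-fold above the other 3 lines for Mest, Dio3, H19 and Cobl (background 2.38%), Ip6k1+/+ replicate 2 for Meg3 (0.984%), Ip6k1-/- replicate 2 for Cdkn1c and Phlda2 (0.732%), and Ip6k1-/- replicate 1 for none (0.907%).

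The patterns over the 4 lines were also compared between genes, as the root mean square difference of levels after each gene was centred on its own mean, among 36 candidate imprinted genes well above background in every line. Nearest to Dlk1 was Meg3 (0.84, where Dlk1 itself had a root mean square of 2.42 about its mean). Nearest to Mest was Igf2 (0.71 of 1.64), which lies on another chromosome. Cdkn1c lay nearest to Ndn (0.78 of 2.22), and Ndn to Snrpn (0.57 of 1.45). Plagl1 was nearest to Cd81 (0.32 of 0.65). For Grb10 and Sgce the nearest were Copg2 (0.085) and Osbpl5 (0.077), all of them genes with little spread. With 4 lines these likenesses are descriptions only.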

How the data were processed

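RNA of 4 MEF lines was read on single-colour Agilent 4x44K arrays that lie on 1 slide. The authors deposited each array's spot intensity after background correction by Feature Extraction 10.5.1.1, on a linear scale, and log2 values that GeneSpring GX had shifted to the 75th percentile, used here as an alternative. The design's probe positions are on mm9 per the file headers.

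From the intensity, log2 was taken, and each array's 75th percentile over its 43379 spots that are not controls was subtracted. Flagged outlier spots (96 to 133 per array) were left out, and spots of a probe were averaged. A probe was tested if it cleared background on both arrays of 1 or both genotypes (21573 of 41174 probes). The gene level used the tested probe with the highest mean. Genotypes were compared with lmFit and eBayes (variance trend, limma 3.58.1, R 4.3.3) and Benjamini-Hochberg adjustment over all probes tested. The p-values set the genotype difference against the spread between lines of a genotype, with the variance moderated over all probes tested. Where a probe was not well above background in a line, "at least" folds used that array's lowest signal among probes well above background, or the probe's own if higher. The fit was tested on simulated data.

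The genes, lists and named genes (all 10 genes, listed genes of the same domains or past a threshold, and the nearest in pattern) were chosen with earlier results of these data known. Alternatives covered normalization, background, filters, the test and each left-out line. The number of arrays limits the precision.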

Additional observations from a re-analysis of the deposited data

How the results depend on the processing

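No probe of the 10 genes was called by limma under any normalization, background correction, filter, source of values or left-out line, nor by the methods' t-test after adjustment. That t-test gave an unadjusted p below 0.05 for 0 of the 12 probes and 849 of 21573 overall. With the replicate block, 0 of the 12 were called, 1 had an unadjusted p below 0.05 and the lowest adjusted p was 0.504. Replicate numbers correlated at 0.48 over probes between genotypes, with 2 pairs only, and the labels do not state a pairing. The direction of Cdkn1c turned under quantile normalization (-0.024) and, with lines left out in turn, ranged from -2.62 to 2.69. Such ranges also crossed 0 for Dlk1 (-5.29 to 0.74 and -4.87 to 0.74), Ndn (-1.77 to 1.58) and Grb10 probe A_52_P40363 (-0.046 to 0.33). Leaving out 1 line at a time, between 0 and 5 of the 12 probes were lower under the 2-fold rule and between 0 and 2 higher. The 5 came without Ip6k1-/- replicate 2 (Cdkn1c, Dlk1, Mest and Ndn), and without Ip6k1-/- replicate 1 Plagl1 was lower and Cdkn1c and Ndn higher. In the wider list, between 3 and 11 were lower and between 0 and 2 higher. With the mean difference alone, 3 of the 12 probes and 10 of the listed genes were lower and 1 listed gene higher. Over all probes, the 2-fold rule gave 404 lower and 229 higher, 266 and 78 after normexp, 949 and 404 without the filter on dim probes, and 241 and 122 with all 4 arrays above background. The 3 limma calls over all probes fell to 0 under quantile normalization, after normexp and without any 1 line, and to 1 under either other filter. The 7 probes with Ip6k1-/- lines at least 2-fold apart stayed 7 under the 5 other normalizations and sources, an alternative chosen after seeing the data, as were the counts over listed genes above background on every array. The cause of these changes was not tested.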
